A study of Homo sapiens with 3 samples.

Results

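Immune checkpoint ligands are surface or secreted molecules through which a cell dampens the lymphocytes and phagocytes that meet it. The 10 genes described here were taken by their symbol in the count tables: CD274, PDCD1LG2, CD276, VTCN1, CD47, LGALS9, PVR, PVRL2, TNFRSF14 and NT5E. All 10 were found among 22824 genes, on 20 transcript records, and the record with the largest total stood for each gene. They were measured by RNA sequencing in MDA-MB-231, an established human breast cancer cell line whose p53 carries a missense mutation. All 3 libraries (n = 3) come from 1 group, which the labels call biological replicates, transfected on a pair of occasions 24 h apart with 50 nM control siRNA and collected 48 h after the second; the labels do not say whether the cultures were separate, so p-values measure only the spread between these libraries. An arm with p53 siRNA is not analysed here. No effect of a treatment can therefore be tested, and the data give the level of each ligand transcript and its spread between libraries.

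The ligands act through separate receptors. CD274 (PD-L1) and PDCD1LG2 (PD-L2) bind PD-1 on activated T cells, CD276 (B7-H3) and VTCN1 (B7-H4) are members of the same B7 family, and PVR (CD155) and PVRL2 (CD112, now named NECTIN2) are nectin-like adhesion proteins read by TIGIT, CD96, PVRIG and the activating receptor CD226. CD47 is the signal that keeps macrophages from engulfing a cell, through SIRPA. LGALS9 encodes galectin-9, a sugar-binding protein reported as a ligand of TIM-3 (HAVCR2), TNFRSF14 (HVEM) engages BTLA and CD160, and NT5E encodes CD73, the surface enzyme that turns AMP into immunosuppressive adenosine.

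The libraries held 68664126, 84880547 and 54512366 gene counts in replicates 1, 2 and 3. All 7 genes listed as present in this line were abundant, with VIM at 4817 ± 167 TPM (a level per transcript length, scaled to the same sum in every library; SD, n = 3), and none of 4 genes listed as low (ESR1, PGR, CDH1 and KRT14) reached 1 CPM (counts scaled by the TMM library size, with no correction for length) in each library. CDH1, at 1.75, 1.14 and 0.822 CPM in replicates 1, 2 and 3, missed it in replicate 3 only. Of 10 leukocyte markers 1 reached 1 CPM in each library, CSF1R at 3.13 ± 0.0572 TPM, against 55.6% of all genes. CD3D, at 2.97 ± 1.06 TPM, and PTPRC, at 0.543 ± 0.228 TPM, missed it in replicate 1 only, and MS4A1 and ITGAM had no counts. Of 4 endothelial markers 2 reached 1 CPM in each library, KDR at 1.21 ± 0.0796 and PECAM1 at 1.12 ± 0.189 TPM. Of 4 fibroblast markers 1 did, COL1A1 at 6.75 ± 0.823 TPM. The leukocyte list summed to between 5.37 and 7.41 TPM in a library, the endothelial list to between 2.29 and 2.55 TPM and the fibroblast list to between 6.41 and 7.77 TPM. In bulk RNA, fewer expressing cells or less RNA per cell cannot be told apart.

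The start regions of 3 of the genes are printed because they belong to the most abundant ligand, the ligand with no counts and the PD-1 ligand CD274. Each run is the 250 bases before the RefSeq transcription start on the gene's own strand, in build GRCh38.p14. For NT5E (chr6:85449833-85450082, plus strand) and VTCN1 (chr1:117210928-117211177, minus strand) capitals mark CG dinucleotides, of which there are 28 and 6. For CD274 (chr9:5450292-5450541, plus strand) capitals mark 2 overlapping matches, on the opposite strand, to GAAA, any 2 bases and GAAA again, the letters of an interferon response element.
NT5E: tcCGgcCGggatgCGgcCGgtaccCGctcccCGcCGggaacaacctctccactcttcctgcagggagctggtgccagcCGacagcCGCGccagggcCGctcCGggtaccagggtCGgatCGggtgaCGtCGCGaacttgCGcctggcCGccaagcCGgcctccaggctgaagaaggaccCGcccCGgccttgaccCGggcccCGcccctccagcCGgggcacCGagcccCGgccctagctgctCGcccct
VTCN1: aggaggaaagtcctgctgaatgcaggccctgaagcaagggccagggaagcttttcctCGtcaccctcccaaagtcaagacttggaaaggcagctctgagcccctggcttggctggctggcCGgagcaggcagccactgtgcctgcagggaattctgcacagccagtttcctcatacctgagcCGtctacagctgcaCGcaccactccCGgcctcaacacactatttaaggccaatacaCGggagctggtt
CD274: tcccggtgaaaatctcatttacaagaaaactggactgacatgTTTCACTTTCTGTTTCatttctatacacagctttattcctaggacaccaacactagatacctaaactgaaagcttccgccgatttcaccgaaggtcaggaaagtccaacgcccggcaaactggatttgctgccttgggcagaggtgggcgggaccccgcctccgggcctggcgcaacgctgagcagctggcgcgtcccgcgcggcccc
Among 35116 start regions of 300 bases (the 250 before and the first 50 of the transcript), 3.57% held that interferon element on either strand. Of the 9 ligand genes with a start region in the table, CD274 had 2 matches and LGALS9 had 1, and none was found in the windows of the other 7. PDCD1LG2 is the gene without an entry. TTCNNNGAA, the letters of a STAT element, was found in CD274 alone of the 9, against 7.66% of all regions, and TATAAA in none of the 9, against 11.5%. These matches are letters in a window, and binding was not measured.

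CpG content was above the median at the start regions of the 5 most abundant ligands. The ratio of observed to expected CG dinucleotides was 0.9 for NT5E, 0.89 for PVRL2, 0.8 for PVR, 1.01 for CD47 and 0.76 and 0.65 for the 2 starts listed for CD276, against a median of 0.58 over all regions. It was 0.91 for CD274 and 0.44 for TNFRSF14, whose levels lay in the middle. The 2 genes at the bottom of the order had the lowest ratios, 0.1 for LGALS9 and 0.27 for VTCN1. GGGCGG, the GC box, matched in NT5E, PVRL2, CD47, CD276 and CD274 and in 45.0% of all regions, and not in PVR, TNFRSF14, LGALS9 or VTCN1.

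Of the 10 ligand genes, 9 reached 1 CPM in each library, against 55.6% of all genes, and VTCN1 had no counts. Their levels ran from NT5E at 296.9 ± 13.2 TPM to LGALS9 at 2.78 ± 0.368 TPM, and 7 lay above the median of the genes with a count, 9.24 TPM. The median of the 10 was 27.6 TPM. Summed, the ligands made up 670.0, 659.3 and 684.5 TPM in replicates 1, 2 and 3, of which NT5E alone was the largest part.

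**Figure D1:**
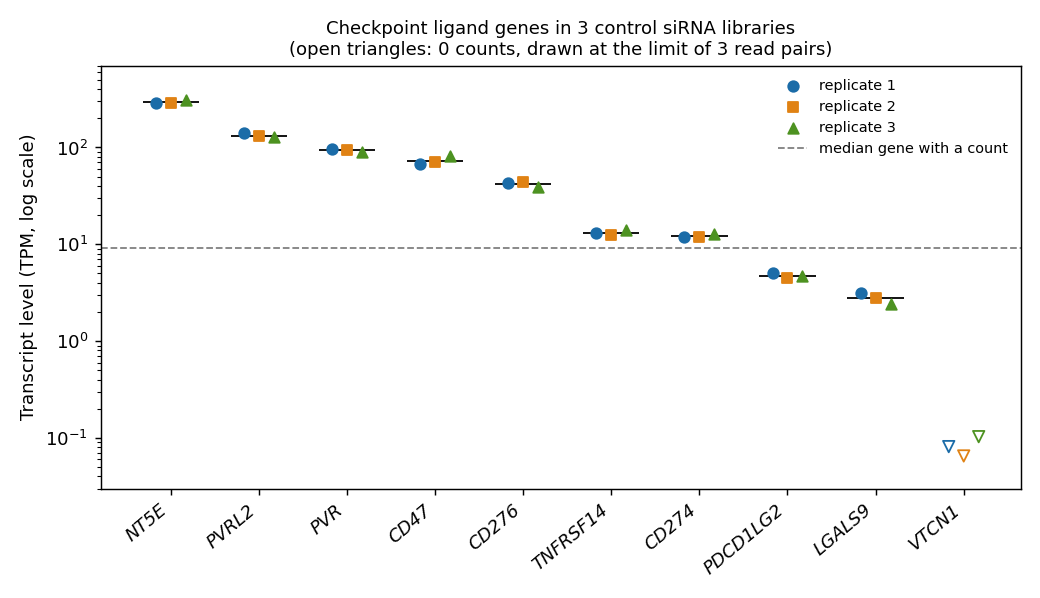
Transcript level (TPM, log scale) of the 10 ligand genes in the 3 control siRNA libraries; horizontal lines are the means, and the dashed line is the median gene with a count at 9.24 TPM. NT5E stands highest at 288.0 to 312.0 TPM, PDCD1LG2 and LGALS9 lie below the dashed line, and VTCN1 had 0 counts and is drawn as open triangles at the limit that 3 read pairs set.

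The ligands of PD-1 were both transcribed, at low to moderate level. CD274 (Entrez gene 29126) had 1187, 1487 and 995 counts and stood at 12.0, 12.0 and 12.7 TPM in replicates 1, 2 and 3, higher than 54.3% of the genes with a count. PDCD1LG2 (80380) had 325, 361 and 239 counts and stood at 5.06, 4.5 and 4.72 TPM, higher than 42.2% of them. CD274 lay above PDCD1LG2 in every library without overlap. The difference in log2 TPM was 1.25, 1.42 and 1.43 (mean 1.37 ± 0.10, a ratio of 2.58), and 1.99 in CPM, where the greater length of the CD274 transcript is not corrected for. The genes are neighbours on chromosome 9, both on the plus strand (GRCh38, CD274 at chr9:5450503-5470566 and PDCD1LG2 at chr9:5510570-5571254), with 40003 bases between them. An exact sign-flip permutation test over 3 libraries cannot go below a two-sided p of 0.25, so these differences between genes are given with their spread and no test.

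Of the 2 other B7 relatives, CD276 lay in the middle of the order and VTCN1 at its end. CD276 (80381), an inhibitory B7 protein of many carcinomas, stood at 42.8, 43.7 and 39.5 TPM (42.0 ± 2.23), higher than 77.1% of the genes with a count. VTCN1 (79679), a B7 protein of some breast and ovarian tumours, had 0 counts on each of its 3 named records in all libraries, and 0 on its 2 records without a symbol. A count of 0 allows up to 0.0813, 0.0651 and 0.103 TPM, the level of 3 read pairs (6 counts) in each library, for counting error only. Against that limit CD276 was at least 384-fold higher in each library.

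CD276 has records for a long protein form, with a duplicated pair of immunoglobulin-like domains, and for a short form without the duplicate. The short record held 3344, 4224 and 2406 counts in replicates 1, 2 and 3, against 4030, 5145 and 2936 for the long one. It thus held 82.34 ± 0.556% of the long record's counts, and 78.9% of its exon bases in the matched GENCODE transcripts. The long record has 731 exon bases that the short one lacks. Since the domain pairs are near copies, the division of reads between the records is uncertain.

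PVR and PVRL2, the ligands of TIGIT, were the third and the second most abundant by TPM, a place above CD47 that depends on the length taken for CD47. PVRL2 (5819) stood at 139.6, 131.9 and 127.5 TPM and PVR (5817) at 95.8, 93.8 and 90.9 TPM in replicates 1, 2 and 3. PVRL2 lay above PVR in each library, and both were highest in replicate 1 and lowest in replicate 3. The difference of PVR minus PVRL2 was -0.51 ± 0.03 in log2 TPM, and -0.08 in CPM. It turned to 0.32 when the records of a gene were summed, which counts the reads that PVR's 4 records share several times. Both genes lie on the plus strand of chromosome 19 (GRCh38, PVR at chr19:44643798-44663583 and PVRL2 at chr19:44846175-44889228), 182591 bases apart.

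The records of PVR differ in length. A record of 1344 exon bases held 36.18 ± 0.994% of the counts of the largest record and 34.6% of its exon bases. The other 2 records, which lack 247 and 159 of its bases, held 96.49 ± 0.282% and 94.51 ± 0.42%. They hold 92.6% and 95.2% of its exon bases, so the order of counts is not that of the bases held. For PVRL2 the second record held 84.09 ± 0.15% of the counts of the first. It has 42.3% of the exon bases of the first and 1070 bases of its own. A read on a shared exon appears to count for each record that holds it, so these shares do not measure isoforms.

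**Figure D2:**
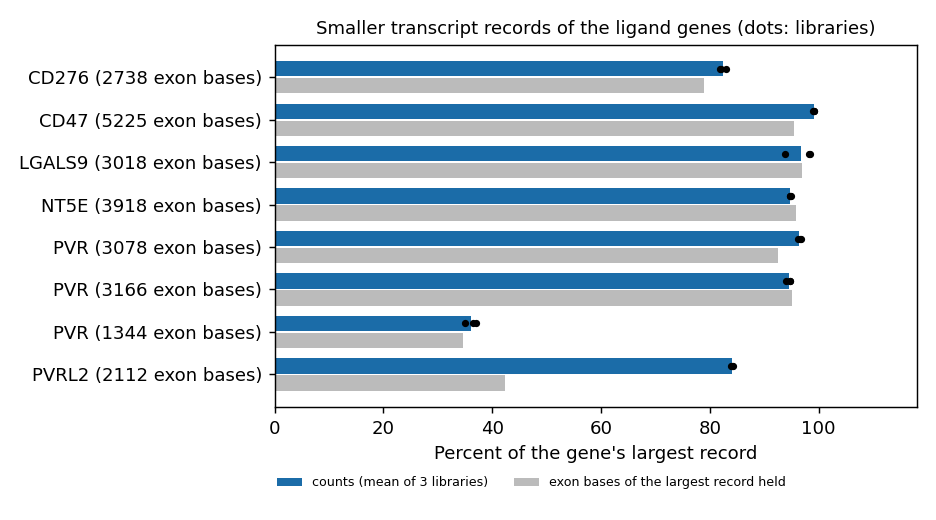
Counts of each smaller transcript record as a percent of the gene's largest record (blue, mean of 3 libraries, dots for single libraries) beside the percent of the largest record's exon bases that it holds (grey). The shortest PVR record lies at 36.18% of counts and 34.6% of bases, and the PVRL2 record at 84.09% of counts on 42.3% of bases.

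CD47 (961), the antiphagocytic signal, stood at 67.9, 70.0 and 80.8 TPM (72.9 ± 6.89), and replicate 3 lay above the other two. Its level depended on the transcript length. The counted record is matched in GENCODE to a transcript of 1285 bases and the gene's other record to one of 5225 bases, while the second held 99.11 ± 0.122% of the counts of the first. The longer length was used. With the length of each counted record instead, CD47 was at 279.7 ± 26.3 TPM, above PVRL2 at 125.5 ± 5.84 TPM. PVR lay above CD47 by 0.36 ± 0.17 in log2 TPM in 3 of 3 libraries. In CPM, CD47 was higher in each, at 140.8, 146.3 and 165.1 against 126.3, 124.8 and 118.3 for PVR. PVRL2 was also below CD47 in CPM in each library, at 136.5, 130.2 and 123.0. The order of PVR and PVRL2 above CD47 thus rests on length.

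TNFRSF14 and LGALS9 were the ligands of other families. TNFRSF14 (8764) stood at 13.0, 12.5 and 13.9 TPM, next to CD274. The ranges of these 2 genes overlapped, their difference was 0.10 ± 0.04 in log2 TPM, and with the longest transcript of each gene TNFRSF14 was below CD274, at 6.19 ± 0.326 against 14.4 ± 0.475 TPM. An antisense gene, TNFRSF14-AS1, shares 831 exon bases with it and was at 0.771 ± 0.072 TPM. The strand setting of the counting is not stated, so reads of the 2 cannot be told apart. Exon overlaps with other genes were 5.1% of exon bases for LGALS9 and 3.4% for PVR and PVRL2.

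LGALS9 (3965) was the lowest ligand with counts, at 266, 295 and 161 counts and 3.15, 2.79 and 2.41 TPM. With the records of a gene summed the order with PDCD1LG2 turned, at 3.0 ± 0.431 TPM for LGALS9 and 2.6 ± 0.154 for PDCD1LG2. Summing appears to count again the reads that the 2 named LGALS9 records share, while PDCD1LG2 has 1 record. For LGALS9, replicate 1 was highest and replicate 3 lowest. Its near-identical copies LGALS9B and LGALS9C had 0, 0 and 0 and 4, 1 and 0 counts, and how reads with several hits were handled is not stated, which leaves the division between the 3 genes uncertain. A LGALS9 record without a symbol held 246, 278 and 141 counts, below the record used.

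NT5E (4907) was the most abundant of the 10 in every library. It had 30890, 38277 and 26194 counts and stood at 290.6, 288.0 and 312.0 TPM, higher than 97.1% of the genes with a count. Replicate 3 was highest, and the other two were close to each other. NT5E exceeded PVRL2 by 1.16 ± 0.12 in log2 TPM in 3 of 3 libraries without overlap. Its second record, which lacks 150 bases of the first and has 520 of its own, held 94.76 ± 0.095% of its counts.

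Whether the ligands differed between libraries by more than counting noise was tested over 14432 genes with an edgeR fit of 1 mean per gene, its deviance set against a chi-square with Benjamini-Hochberg adjustment. Of 9 ligands tested 6 varied at an adjusted p under 0.05, against 53.0% of all genes tested, so the share among the ligands is near the background. VTCN1 could not be tested. The 3 that did not pass were CD274 (adjusted p = 0.612), PDCD1LG2 (0.422) and TNFRSF14 (0.433). A p that misses the threshold does not show that the libraries were alike for them, and CD274 spanned 1.05-fold, TNFRSF14 1.09-fold and PDCD1LG2 1.12-fold between libraries.

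The variation that passed was small in size. By edgeR's adjusted p, CD47 spanned 1.17-fold (9.13e-27), NT5E 1.06-fold (4.79e-13), PVRL2 1.11-fold (5.31e-09), CD276 1.13-fold (2.01e-06), PVR 1.07-fold (0.00051) and LGALS9 1.32-fold (0.0365). The abundant genes passed with narrow ranges, since their counting error is small. With a coefficient of variation of 0.05 between libraries allowed for in the edgeR fit, 0 of 9 passed, against 1.12% of all genes. Then 0 of 9 had an unadjusted p under 0.05, and the lowest was 0.0682, for CD47. With the deviance divided by 2, to stand for read pairs whose 2 mates were both counted, 5 passed against 28.5% of genes, and LGALS9 was lost (adjusted p = 0.27). All 6 passed with DESeq2 size factors and with total counts (53.1% of genes each), with no filter on low counts (44.2%) and with records summed (62.4%).

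**Figure D3:**
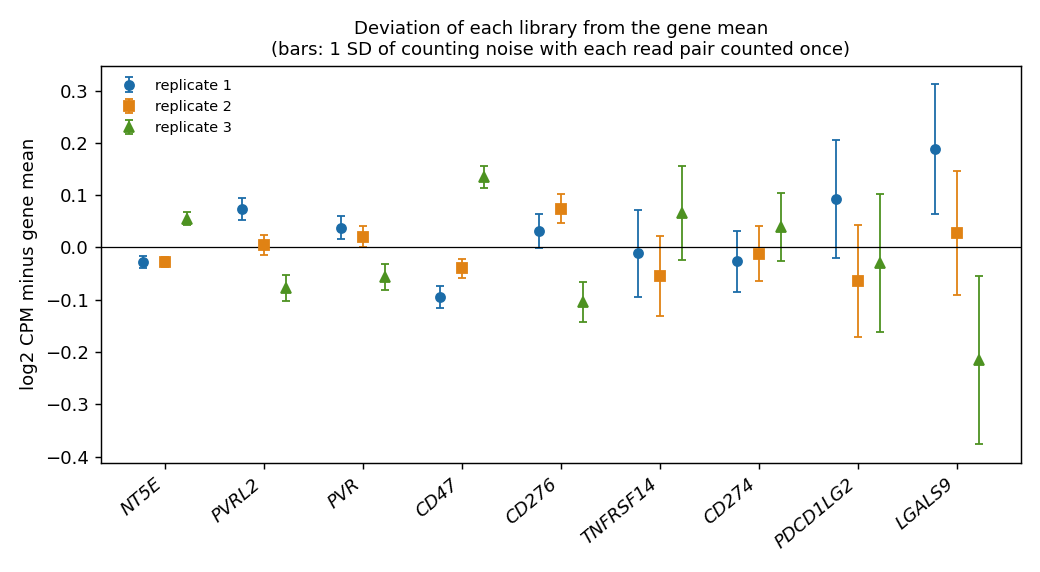
Difference of each library's log2 CPM from the gene mean for the 9 ligands with counts; bars are 1 SD of counting noise with each read pair counted once. CD47 and NT5E are highest in replicate 3, whereas PVRL2, PVR, CD276 and LGALS9 are lowest there, and the bars of CD274 all include 0.

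Replicate 3, the library with the fewest counts, stood apart for several ligands. Without replicate 1, 5 of 9 varied against 37.8% of genes, and without replicate 2, 6 of 9 against 39.2%. Without replicate 3, 2 of 9 ligands varied, PVRL2 (adjusted p = 0.00499) and CD47 (0.0243), against 24.2% of all genes. NT5E then had an adjusted p of 0.992, PVR of 0.576, CD276 of 0.32 and LGALS9 of 0.36. In replicate 3 the log2 CPM of CD47 lay 0.135 and that of NT5E 0.055 above the gene mean, while PVR lay at -0.057, PVRL2 at -0.077, CD276 at -0.105 and LGALS9 at -0.216.

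These directions are set beside base composition here, and the share of all genes with a like direction was not counted. The part that base composition or library depth has in the variation was not tested. CD47 (37.1% GC), CD274 (40.9%) and NT5E (45.2%) were above their mean in replicate 3, and LGALS9 (54%), PVR (56.5%), PVRL2 (59.4%) and CD276 (61.0%) below it. PDCD1LG2 (41.9% GC, -0.029) and TNFRSF14 (62.2%, 0.066) went the other way. The deviations of CD274 (0.039), PDCD1LG2 and TNFRSF14 were within 1 SD of counting noise (0.065, 0.132 and 0.09), so their directions are uncertain. Over all genes tested, the median deviation in replicate 3 was 0.053 for 5602 genes under 46% GC and -0.066 for 4922 genes with 54% or more. With each library's trend on GC content taken out, 4 of 9 ligands varied against 39.3% of genes. CD47 (adjusted p = 7.14e-05), NT5E (0.000643) and PVRL2 (0.0268) stayed past the threshold, TNFRSF14 passed it (0.0394), and CD276 (0.0881), LGALS9 (0.0892) and PVR (0.643) did not.

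**Figure D4:**
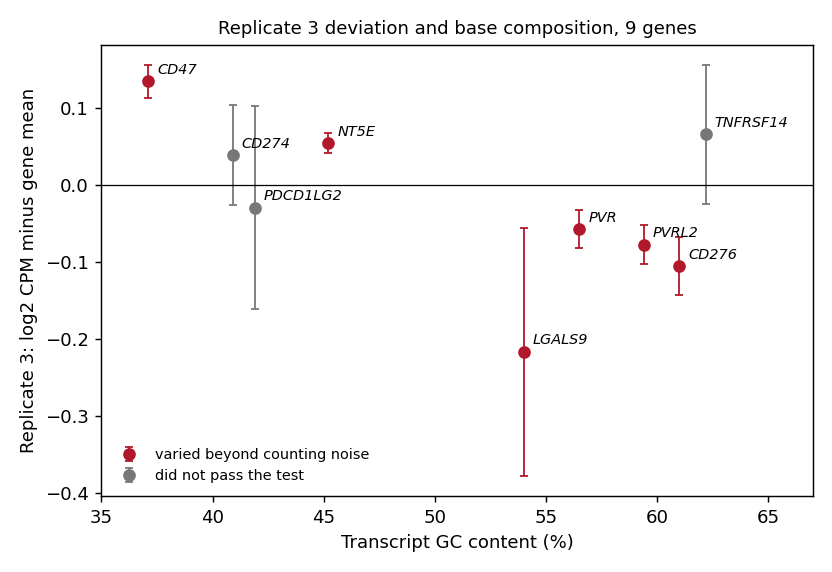
Deviation of replicate 3 from the gene mean (log2 CPM) against transcript GC content for the 9 ligands with counts; bars are 1 SD of counting noise with each read pair counted once, and red marks genes that varied beyond counting noise. CD47 at 37.1% GC lies at 0.135, CD276 at 61.0% GC at -0.105, and TNFRSF14 at 62.2% GC at 0.066.

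The partner genes of these ligands, whose products are borne mostly by immune cells, were mostly low in the same libraries. They are receptor genes except for CD80 and TNFSF14, and CD80 is also listed with the other B7 genes. Of 12 partner genes 2 reached 1 CPM in each library, against 55.6% of all genes, and the median of the 12 was 0.0546 TPM. PDCD1, the PD-1 gene, had 0, 0 and 2 counts, HAVCR2 had 14, 1 and 6, SIRPA had 21, 8 and 0, and TIGIT and SIRPG had none. The exception was CD96, a T and natural killer cell receptor for PVR, with 3318, 4552 and 2947 counts and 27.1, 29.7 and 30.5 TPM. Only 4 of the 12 had enough counts to be tested. CD96 was the 1 of these that varied (edgeR adjusted p = 2.32e-05, 1.11-fold), against 53.0% of all genes tested. PVRIG, at 2.48 ± 0.321 TPM, shares 80.9% of its exon bases with STAG3 on the same strand, so its reads are uncertain, and CD160 stood at 0.478 ± 0.146 TPM.

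Relatives of the ligands differed from one another. Of 5 other B7 genes in the tables, C10orf54, the VISTA gene, stood at 9.42 ± 0.586 TPM and ICOSLG, the ligand of ICOS, at 1.63 ± 0.356 TPM. ICOSLG varied (adjusted p = 5.64e-07), with 1.84, 1.22 and 1.83 TPM and replicate 2 lowest. The costimulatory genes CD80 (0, 7 and 0 counts) and CD86 (0 in each) were at or near 0, as was HHLA2. In the galectin and nectin families LGALS1 was far above LGALS9, at 2793 ± 197 TPM, followed by LGALS3 at 152 ± 4.82, LGALS8 at 66.9 ± 5.30, PVRL3 at 41.4 ± 2.71 and PVRL1 at 13.5 ± 0.695 TPM, and all 5 of these varied, against 53.0% of all genes tested, with spans of 1.05-fold to 1.18-fold. LGALS8 shares 21.6% of its exon bases with HEATR1 on the opposite strand (34.7 ± 1.96 TPM), so its level is uncertain. PVRL4 had 4, 4 and 0 counts.

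The genes around CD47 and NT5E were mixed. THBS1, which encodes thrombospondin-1, a secreted ligand of CD47, was at 252, 214.9 and 234.8 TPM and varied (adjusted p = 2.54e-132), and QPCTL, whose enzyme modifies the end of CD47 that SIRPA binds, was at 22.1 ± 0.678 TPM. On the path from ATP to adenosine, ENTPD3 and ENTPD1, which make the AMP that CD73 uses, were at 6.31 ± 0.381 and 5.45 ± 0.0862 TPM, far below NT5E. Downstream, the adenosine transporter gene SLC29A1 stood at 246 ± 8.31, the kinase gene ADK at 110 ± 6.31 and the receptor gene ADORA2B at 63.7 ± 0.589 TPM. ADORA2A was at 4.48 ± 0.75 TPM, ADA, whose product degrades adenosine, at 3.18 ± 0.201, DPP4 at 0.624 ± 0.199, and ADORA1, the lowest, had 0, 10 and 1 counts. Of 8 tested genes of this list 4 varied, SLC29A1, ADK, ADORA2A and DPP4, a share near the 53.0% of all genes tested. ADORA2A shares 56.8% of its exon bases with a readthrough gene, so its reads are uncertain.

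All 11 genes listed for interferon signalling to CD274, inhibitors among them, reached 1 CPM in each library, against 55.6% of all genes. The transcription factor gene STAT3 stood at 112 ± 4.10 TPM, the receptor-bound kinase gene JAK1 at 74.2 ± 2.53 and IRF1, another transcription factor gene, at 62.2 ± 2.97 TPM. The feedback inhibitor SOCS1 was lowest, at 3.50 ± 0.202 TPM. Of the 11, 8 varied, among them STAT3, JAK1, IRF1, IFNGR1 and JAK2 (6.85 ± 0.74 TPM), against 53.0% of all genes tested and 28.5% with the deviance divided by 2. Nothing particular to the list is read from that count. Genes that control the amount of PD-L1 protein were also transcribed, 6 of 6, with the ubiquitin ligase gene STUB1 at 132 ± 10.4, COPS5 at 84.1 ± 1.39 and the PD-L1 stabiliser CMTM6 at 83.7 ± 5.30 TPM, each above CD274 itself. CMTM4 was the lowest at 20.4 ± 1.92 TPM, and STUB1, CMTM6, GSK3B and CMTM4 varied, 4 of 6 tested against 53.0% of all genes. STUB1 shares 42.4% of its exon bases with JMJD8 on the opposite strand (92.2 ± 5.73 TPM), and IRF1 shares 1716 exon bases with an opposite transcript, so both levels are uncertain.

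Other inhibitory molecules were led by HLA-E, which engages an inhibitory receptor of natural killer cells, at 270 ± 4.07 TPM summed over 7 copies of its region and 40.1 ± 0.923 with the largest copy alone. PTGS2 stood at 6.03 ± 1.14 and IDO1, the tryptophan-degrading enzyme gene, at 1.73 ± 0.394 TPM, and both were highest in replicate 3. Among the 4 genes of this list that were tested, PTGS2 and IDO1 varied, against 53.0% of all genes tested, and FGL1 had no counts. IDO1 passed narrowly (edgeR adjusted p = 0.035). Calls in all related lists, LGALS3 (0.00801) among them, are from the main edgeR fit. If both mates of a pair were counted, that fit understates counting noise, and calls with the deviance divided by 2 are not given for these genes. No call is given for HLA-E, whose 7 summed copies may repeat the same reads, which would understate counting noise.

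**Figure D5:**
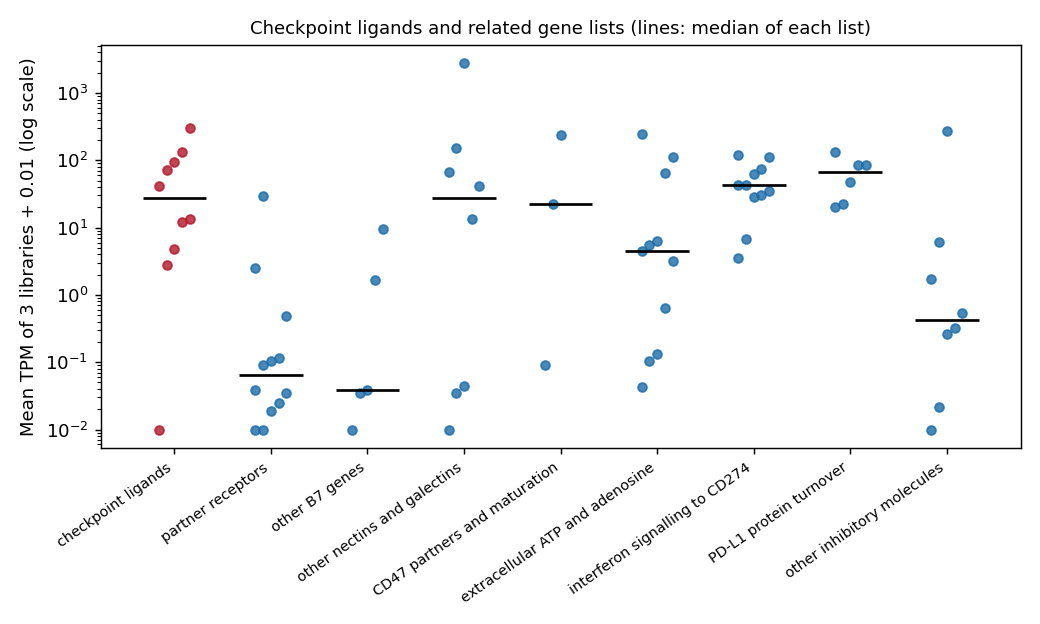
Mean TPM of the 3 libraries plus 0.01 (log scale) for the 10 checkpoint ligands (red) and the genes of 8 related lists (blue); black lines are list medians. The ligands have a median of 27.6 TPM. The list of partner receptors, which also holds CD80 and TNFSF14, has a median of 0.0546 TPM, and CD96 at 29.1 TPM stands apart in it.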

How the data were processed

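RNA of 3 samples was sequenced as 100 bp read pairs from TruSeq libraries, per the labels' protocols. Raw counts for each RefSeq record were deposited by the authors. The submitters' processing notes name FastQC, TopHat2, Cufflinks and build hg19; versions, counting tool, strand setting and treatment of reads with several hits are not given in the sources used here. Of 42269 records, 6937 had no symbol; 619 of these could not be matched by accession and stayed out (0.952%, 0.959% and 0.944% of counts). Copies of a record were summed, then the largest record was taken per gene, since records of 1 gene share reads; over 5738 genes with several records the lowest held a median of 93.8% of the highest, and under 50% in 10.9% of them. Genes with exactly 2 counts (712, 637 and 580) outnumbered those with 1 (485, 401 and 379), so both mates of a pair may have been counted.

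TPM used GENCODE 29 (GRCh38), with the longest transcript matched to any record of the gene, else the gene's longest; this replaced the length of the counted record after the lengths were seen. CPM used edgeR 4.0.16 TMM sizes in R 4.3.3. The filter was filterByExpr; dispersion was 0. DESeq2 1.42.0 size factors, other filters, lengths and left-out libraries were alternatives. Tested on simulated counting noise over 14584 genes, the fit recovered 74% of genes changed 1.3-fold in 1 library and 96% changed 2-fold, with 7 false calls. The simulation drew only the counting noise that the fit assumes, so these figures give no error rate for the real counts. For those, edgeR estimated a common coefficient of variation of 0.0544 between libraries. Promoters are from RefSeq (GRCh38.p14); 9 of 10 genes matched. Replicates are called biological by the labels. The members and lists were chosen with earlier results of these data known. Named are all ligands and, per related list, the 3 highest, the lowest and the varying genes; HAVCR2, PDCD1, CD80, PVRL4, ENTPD1, ENTPD3, ADA and the markers were added after their values were seen. Python 3.11.15, numpy 2.4.6, pandas 2.3.3 and matplotlib 3.10.9 were used. Counting limits cover counting error only. Values of some listed genes are not reported here.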

Additional observations from a re-analysis of the deposited data

How the results depend on the processing

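No paired analysis was possible because the 3 libraries form 1 group. The number of ligands that varied (6 of 9) became 0 with a coefficient of variation of 0.05 allowed and 1 with each pair counted once and the GC trend removed, an alternative chosen after seeing the data; with 1 library left out it ran from 2 (without replicate 3) to 6. The number of all genes that varied (7656 of 14432) became 4119 with each pair counted once, 161 with the coefficient allowed, 2074 with pairs once and GC removed, and ran from 3571 (without replicate 3) to 5663 with 1 library left out. The cause was not tested. In log2, CD274 minus PDCD1LG2 was 1.99 in CPM and ran from 1.33 to 1.43 with 1 library left out; CD276 minus the limit for VTCN1 was 9.01, became 9.87 with records summed and ran from 8.81 to 9.22 with 1 library left out; PVR minus PVRL2 was -0.08 in CPM and reversed to 0.32 with records summed, which counts shared reads again. DESeq2 size factors, total counts, no filter and summed records left 6 ligands varying, and detection held for 9 ligands at 0.5 CPM and for 7 at 5 CPM. Depth limits LGALS9 and PDCD1LG2 most, with 161 to 361 counts a library.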

Other observations

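CD96 stood apart from the other receptor genes. Its level of 29.1 ± 1.77 TPM lay above that of CD274, while the pan-leukocyte gene PTPRC was at 0.543 ± 0.228 TPM and the T cell gene CD3E had 3, 4 and 0 counts. In the GENCODE annotation no exon of another gene overlaps an exon of CD96. ZBED2, a gene on the opposite strand within the CD96 locus, was at 0.209 ± 0.161 TPM.

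Another T cell gene, CD3D, had 41, 109 and 63 counts (2.97 ± 1.06 TPM) and varied (edgeR adjusted p = 0.000165), and PTPRC also varied (5.03e-05), with 52, 87 and 92 counts. Both were lowest in replicate 1.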
